A study of Homo sapiens with 8 samples.

Results

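The genes described here lie next to one another on the short arm of human chromosome 7, in bands 7p22 to 7p14. The list held 58 genes and was put together with the difference between the study's groups in view, so that difference is described here and not tested. Where a gene had several Affymetrix probe sets, the one brightest on average across the 8 arrays stood for it, and 54 of the 58 members had such a probe set, of 19775 genes measured in all. Of the other 4 members, PMS2 and TOMM7 had only probe sets that carry a further gene's symbol and were not analysed here, and AIMP2 and KDELR2 had no listed probe set. By the RefSeq gene table the members run from LFNG, nearest the telomere, to DPY19L1, nearest the centromere, and another 116 measured genes lie between these ends.

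RNA came from H460, a cell line of human non-small-cell lung carcinoma. The sensitive group comprised 4 arrays of H460 cells labelled as control, which respond to TRAIL, a ligand that triggers apoptosis through death receptors. The resistant group comprised 4 arrays of H460 cells with acquired TRAIL resistance, obtained by daily exposure to subtoxic TRAIL over 6 months. Both groups were grown in RPMI with fetal bovine serum, and the labels state neither a matched time in culture for the controls nor how many cultures or clones the arrays represent. The spread between arrays may therefore be technical, and resistance, long TRAIL exposure and time in culture cannot be told apart.

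Genes that are neighbours on a chromosome share its copy number, and some share a chromatin domain or a promoter, so lists made by position show whether a stretch of the genome moves as 1 unit. The short arm of chromosome 7 carries genes with little else in common: transcription factors such as AHR and ETV1, splicing proteins such as TRA2A and HNRNPA2B1, adaptors of ubiquitin ligases and regulators of the lysosome and of membrane traffic. DNA copy number was not analysed here.

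The deposited values are linear signals, scaled so that every array has the same trimmed mean, and all levels below are log2(signal + 1). Differences are the mean of the resistant arrays minus that of the sensitive arrays on this scale and carry limma's standard error, and a gene is said to have risen or fallen where its p, adjusted by Benjamini-Hochberg over all 19775 genes, was below 0.05. Array medians lay between 5.07 and 5.27. The 3' minus 5' difference of the ACTB control probe sets, a measure of RNA integrity and labelling, was 0.23 ± 0.00 (SD, n = 4) in sensitive and 0.11 ± 0.01 in resistant arrays (exact two-sided permutation test, p = 0.0286, the smallest possible for 4 against 4, and 0.0857 adjusted over 3 array measures). ACTB itself lies within the interval. The same difference for GAPDH did not separate the groups (p = 0.686, exact permutation test), and the part of RNA quality in the results below was not tested. Of 5 epithelial markers, KRT8, KRT18 and KRT19 were bright, KRT19 fell by 1.24, and EPCAM and CDH1 lay below the level of the median probe set, 5.01, in both groups. Of 3 measured leukocyte and 3 endothelial markers, only CD14 and PECAM1 lay above it, and these 6 were not called. Of 4 fibroblast markers, COL1A1 and COL3A1 lay above it on average and LUM fell by 3.27. Their part in the results was not tested.

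The short-arm genes were lower more often than higher in resistant cells, but they did not move as 1 block. Of the 54 measured members, 36 (66.7%) had a lower mean in resistant arrays and 18 a higher one, and the median difference was -0.34. Over all 19775 genes 52.5% were lower and the median difference was -0.03. By the fit across all genes 24 members fell, 9 rose and 21 were not called, so that 33 were called in all. Over all genes 15.6% fell and 14.7% rose, 30.3% together. Since 52 of the members lay above the level of the median probe set, the 11633 genes above it are a closer background: 23.9% of them fell and 23.3% rose, so the members' 44.4% fallen lay above this share and their 16.7% risen below it. Of the 54 members 4 were at least 2-fold lower and 4 at least 2-fold higher, where these shares were 7.76% and 5.5% of all genes. Above the median level the counts were 3 and 4 of 52 members, and 687 and 463 of the 11633 genes. For 27 members all 4 resistant arrays lay below all 4 sensitive arrays and for 10 they lay above, where these shares were 17.4% and 16.5% of all genes and 26.5% and 26.3% of those above the median level. Because the list was drawn up from this same contrast, these counts are not evidence about the chromosome. When every probe set of a gene was averaged instead of taking the brightest, the members' median difference was -0.16. In bulk RNA fewer cells of a kind and less RNA per cell cannot be told apart.

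**Figure D1:**
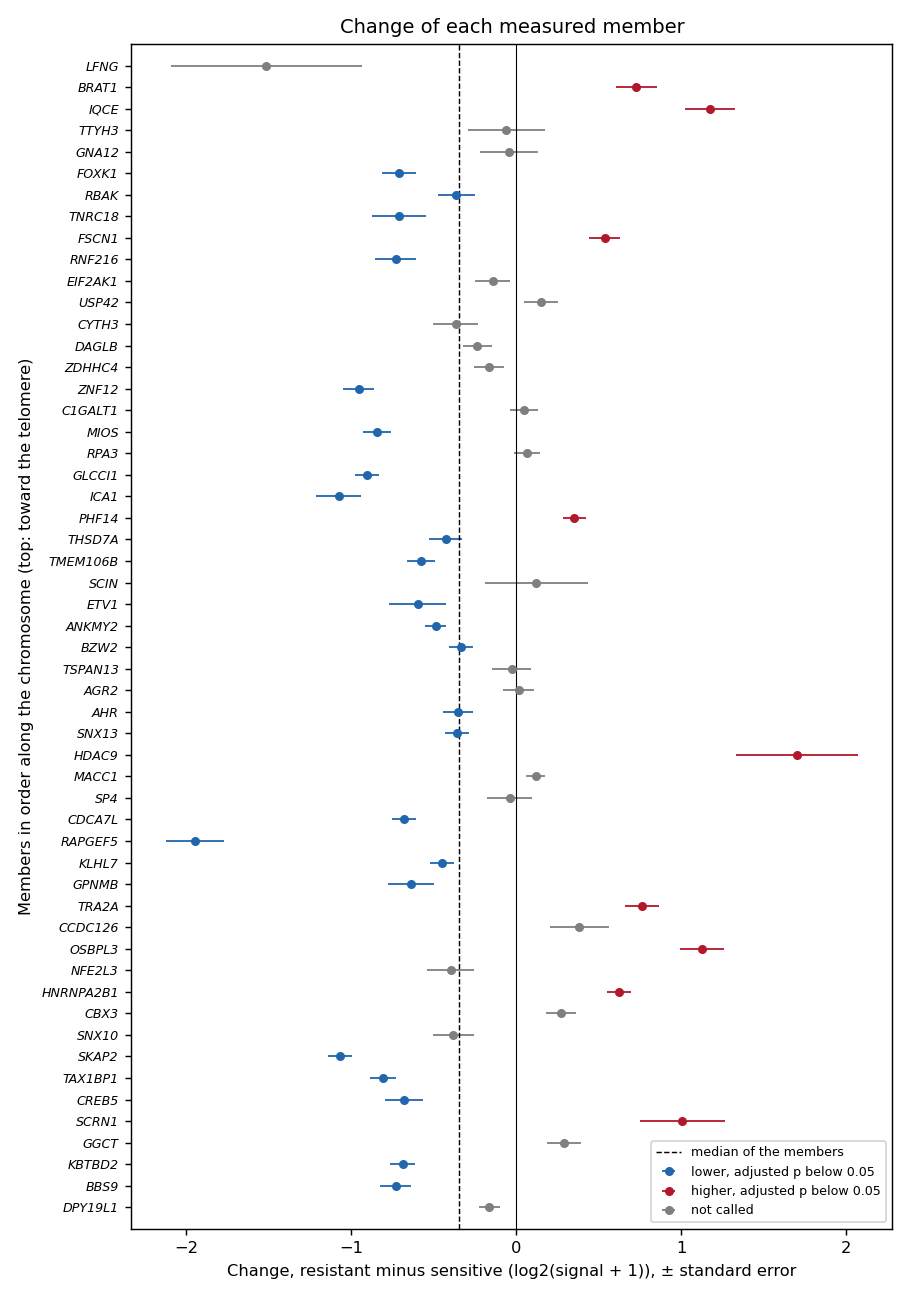
Difference between resistant and sensitive cells for each of the 54 measured members, in order along the chromosome from the telomere (top). The horizontal axis is the difference in log2(signal + 1) between the means of 4 resistant and 4 sensitive arrays, the bars are standard errors, colour gives the call, and the dashed line is the members' median of -0.34. Red points lie scattered among the more numerous blue ones along the axis, with stretches of blue and grey between them. Differences run from -1.94 for RAPGEF5 to 1.70 for HDAC9.

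The lower level of the list, which was drawn up from the contrast between these same arrays, was seen in every resistant array. Taken as the median deviation of the members from their own sensitive means, the resistant arrays lay at -0.26, -0.29, -0.33 and -0.36, and the sensitive arrays at -0.01, 0.02, -0.01 and 0.01. The same measure over all genes was -0.03, -0.03, -0.03 and 0.02 in the resistant arrays. Between 31 and 33 members of each resistant array lay below the lowest of the 4 sensitive arrays, which is 57.4% to 61.1% of the members. Of all genes, dim ones included, 30.5% to 32.5% did so in these arrays. The share among genes above the median level, the closer background, was not computed for this measure.

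**Figure D2:**
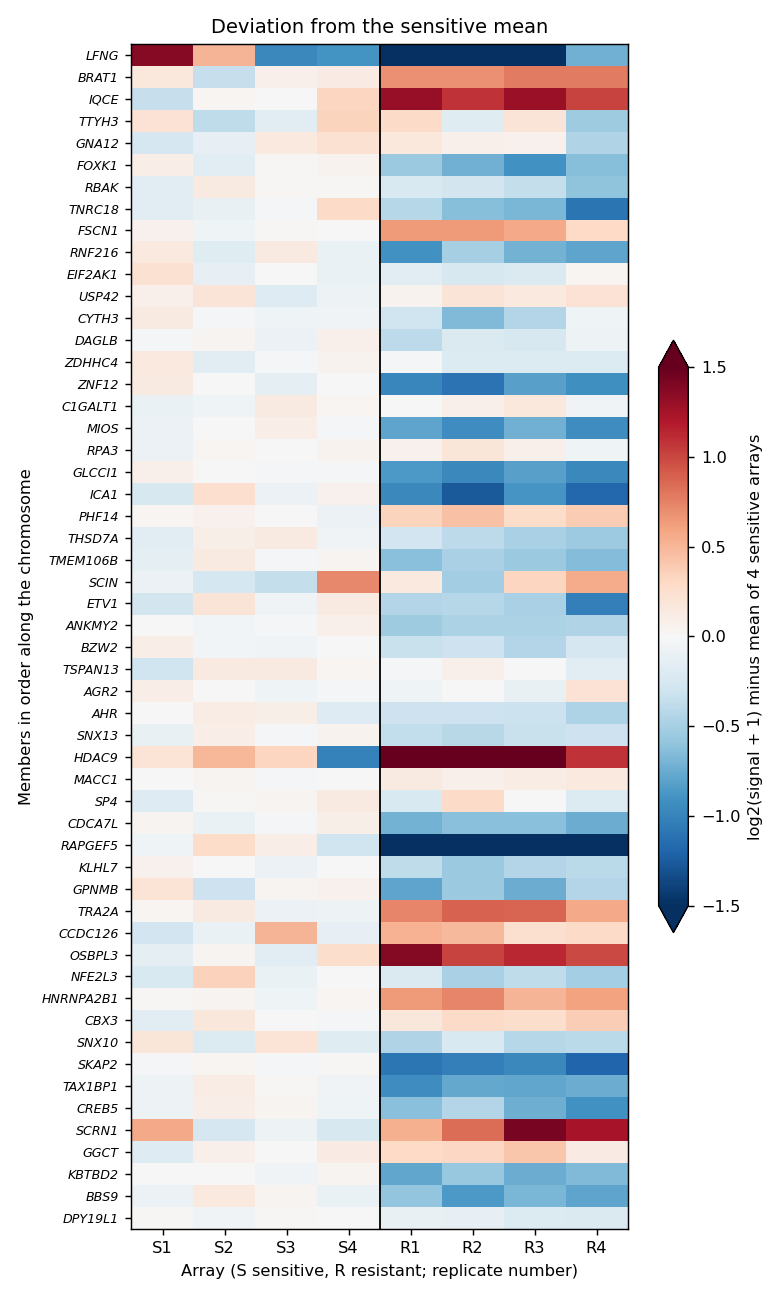
Deviation of each member in each of the 8 arrays from the mean of the 4 sensitive arrays, in log2(signal + 1), with members in order along the chromosome. Blue is below and red above the sensitive mean. The 4 resistant arrays show a similar mix of blue and red rows, with medians of -0.26 to -0.36.

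Both signs were found all along the arm. The 54 members formed 25 runs of 1 direction, and the longest runs, TTYH3 to TNRC18 and SP4 to GPNMB, held 5 genes each. The number of runs was not compared with that of a random order, so it is a description only. In the first stretch, LFNG to ZNF12, 12 of 16 members were lower with a median of -0.20. From C1GALT1 to ETV1, 6 of 10 were lower with a median of -0.50, from ANKMY2 to CCDC126, 10 of 15 with a median of -0.33, and from OSBPL3 to DPY19L1, 8 of 13 with a median of -0.38. The ends of these 4 stretches were set after the values had been seen. Each stretch held members that rose as well as members that fell.

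The genes between the members, taken by position alone, were lower on balance, but not in every stretch. Of the 116 other measured genes of the interval 73 (62.9%) were lower, with a median of -0.24. By the fit 23 (19.8%) fell and 10 (8.62%) rose, against 15.6% and 14.7% of all genes, so the share that fell was close to the background. Their median was -0.15 without sensitive array 2 and -0.31 without sensitive array 4. From C1GALT1 to ETV1, where the members' median was lowest, only 4 of 9 neighbours were lower, with a median of 0.03. In the other 3 stretches the neighbours' medians were -0.35, -0.19 and -0.29. Many of these genes are dim: above the level of the median probe set there were 56, of which 36 were lower with a median of -0.27, against a median of -0.01 for all genes above that level. Of these 56 neighbours 33.9% fell and 14.3% rose, against 23.9% and 23.3% of all genes above that level. The stretch itself was chosen on this contrast, so these shares are a description only. Among those that fell were STEAP1B (-1.94 ± 0.23), a relative of the metalloreductases, and RADIL (-1.14 ± 0.15), an effector of the small GTPase Rap. ITGB8, an integrin chain, differed by -1.40 ± 0.38, a call that was lost without any single array other than sensitive array 1 or resistant array 3. FKBP14, a prolyl isomerase of the endoplasmic reticulum, rose by 0.78 ± 0.07 and MTURN by 1.05 ± 0.20. Of the HOXA cluster, which lies between SKAP2 and TAX1BP1, only HOXA2 was measured here, with a difference of -0.44 that was not called.

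Outside the interval the share of lower genes on the same chromosome was close to that of all genes. Of 33 measured genes on the telomeric side 17 were lower (median -0.06), of 107 between DPY19L1 and the centromere 54 (median -0.02), and of 622 on the long arm 322 (median -0.03). The running median of 21 neighbouring genes was below 0 for 157 of the 170 genes of the interval and for 419 of the 742 genes elsewhere on the chromosome that had one. It was lowest at -0.60, around HOXA11-AS, HOTTIP and EVX1, and reached 0.19 around PALS2, near OSBPL3. A running median of -0.57 was also found on the long arm, around STAG3L4, so values of this size were not confined to the interval. Whether the interval differs from the rest of the chromosome was not tested, since it was chosen on these values.

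**Figure D3:**
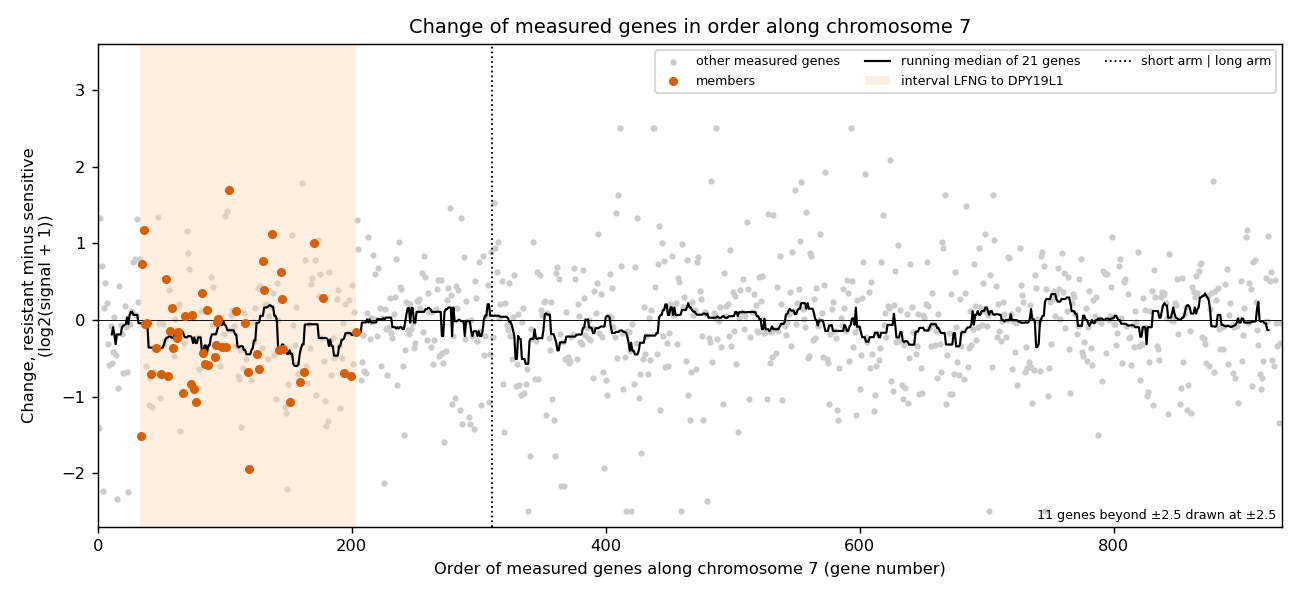
Difference between resistant and sensitive cells for 932 measured genes of chromosome 7 in their order along the chromosome, on the log2(signal + 1) scale. Orange points are the members, grey points all other genes, the shaded band is the interval from LFNG to DPY19L1, the dotted line separates the short from the long arm, and 11 genes beyond 2.5 in either direction are drawn at that edge. The black running median of 21 genes lies below 0 over most of the band, down to -0.60, and crosses 0 repeatedly outside it, with a low of -0.57 on the long arm.

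The 6 members grouped under signalling all had a lower mean, but only 2 (33.3%) fell by the fit. Over the whole list 44.4% fell, and over all genes above the median level 23.9%. The grouping was made with earlier results known, so the shared direction is a description only. The largest estimated fall of the list was in this group. RAPGEF5, an exchange factor that activates the GTPase Rap, lay at 7.12, 7.46, 7.28 and 6.89 in sensitive and at 5.60, 5.25, 5.21 and 4.93 in resistant arrays. The groups did not overlap, and the difference of -1.94 ± 0.18 is a 3.85-fold lower signal. Its next probe set differed by -1.10 ± 0.33 and was not called, and a dim one lay at 0.28. SKAP2, an adaptor protein of Src-family kinase signalling, had 9.66, 9.72, 9.66 and 9.71 in sensitive and 8.60, 8.67, 8.72 and 8.50 in resistant arrays. Sensitive arrays agreed closely and resistant arrays lay 1.07 ± 0.07 lower. All 3 further SKAP2 probe sets above the median level fell too, by 0.92 to 0.95. Of the remaining 4 genes of this kind, LFNG, a glycosyltransferase that modifies Notch, was dim in both groups, with 4.93, 4.07, 2.60 and 2.67 in sensitive and 1.96, 1.54, 1.87 and 2.85 in resistant arrays. Its arrays overlapped and the difference of -1.51 ± 0.58 was not called. CYTH3, an exchange factor for Arf GTPases (-0.37 ± 0.13), DAGLB, a diacylglycerol lipase (-0.23 ± 0.09), and GNA12, a G protein alpha subunit (-0.04 ± 0.17), were not called either.

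Transcription and chromatin regulators made up the largest group, with 8 of 14 (57.1%) fallen, 2 (14.3%) risen and 4 not called. Over the whole list 44.4% fell and 16.7% rose, and over all genes above the median level 23.9% and 23.3%. The roles were assigned with earlier results known, so these counts describe the list only. ZNF12, a zinc finger repressor, lay at 10.48, 10.34, 10.20 and 10.35 in sensitive and at 9.36, 9.23, 9.53 and 9.43 in resistant arrays, a difference of -0.95 ± 0.10. Its 3 other probe sets fell by 0.72 to 0.82. FOXK1, a forkhead factor that takes part in metabolic control, fell by 0.71 ± 0.10 and TNRC18, a chromatin protein, by 0.71 ± 0.17. CDCA7L, a partner of MYC, had 9.83, 9.70, 9.76 and 9.88 in sensitive and 9.09, 9.16, 9.16 and 9.05 in resistant arrays, a gap with no overlap and a difference of -0.68 ± 0.07. CREB5, a factor of the CREB and ATF family, fell by 0.68 ± 0.11, while 1 of its other probe sets lay at 0.11 and was not called. RBAK, a KRAB zinc finger protein that binds RB, fell by 0.36 ± 0.11, a call that was lost without any 1 array other than sensitive array 1.

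ETV1, an ETS factor of the PEA3 group, lay at 8.86, 9.33, 9.08 and 9.26 in sensitive and at 8.69, 8.71, 8.65 and 8.10 in resistant arrays, a difference of -0.59 ± 0.17. The groups did not overlap, but the highest resistant array lay close to the lowest sensitive one, and the call was lost without sensitive array 2, 3 or 4 or resistant array 1, 2 or 3. Its 4 other probe sets fell by 0.87 to 0.95. The other PEA3 genes, on other chromosomes, fell as well, ETV4 by 1.51 ± 0.10 and ETV5 by 0.34 ± 0.07. ETV5 was -0.05 and not called with all its probe sets averaged, and its call was also lost after median centring, with the replicate block and when suffixed probe sets, which can cross-hybridise, were left out.

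AHR, the receptor for dioxins and other aromatic ligands, had 10.00, 10.12, 10.09 and 9.81 in sensitive and 9.70, 9.69, 9.68 and 9.54 in resistant arrays, a difference of -0.35 ± 0.09 on its 1 probe set. The call was lost without any 1 array other than sensitive array 4. Of 10 genes listed as AHR targets, a list drawn up with earlier results of these data known, 4 fell, 0 rose and 6 were not called by limma. All 10 had a lower mean in resistant arrays, with a median of -0.32, but for CYP1A1 the difference was only -0.01 ± 0.72. Among all genes above the median level, where 8 of these targets lay, 23.9% fell and 23.3% rose. Those that fell were STC2 (-0.78 ± 0.07), AHRR, the repressor of the receptor (-0.77 ± 0.14), SLC7A5 (-0.63 ± 0.07) and ALDH3A1 (-0.41 ± 0.08). CYP1B1 differed by -0.14 ± 0.06 and TIPARP by -0.14 ± 0.07, and CYP1A1 was too dim to compare. SLC7A5 and STC2 are known as targets of the stress factor ATF4 too.

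The 2 transcription regulators that rose were HDAC9 and PHF14. HDAC9, a class IIa histone deacetylase, had 4.89, 5.18, 5.01 and 3.67 in sensitive and 6.58, 6.62, 6.58 and 5.78 in resistant arrays. Its difference of 1.70 ± 0.37 was the largest rise of the list, and its sensitive mean was dimmer than the median probe set. The related genes HDAC4 and HDAC5 fell, by 0.92 ± 0.11 and 0.53 ± 0.15, the latter call being lost without sensitive array 1, 2 or 4 or resistant array 1, 3 or 4. PHF14, a PHD finger protein, lay at 10.19, 10.22, 10.15 and 10.07 in sensitive and 10.49, 10.59, 10.43 and 10.54 in resistant arrays. It rose by 0.35 ± 0.07, with no overlap between the groups. CBX3, which encodes heterochromatin protein HP1 gamma, had 11.54, 11.87, 11.70 and 11.69 in sensitive and 11.87, 11.99, 11.96 and 12.06 in resistant arrays. Its difference of 0.27 ± 0.09 was not called, with overlapping groups, although 2 of its other probe sets rose by 0.72 and 0.73. MACC1, a regulator of MET in colon cancer, had 7.40, 7.44, 7.36 and 7.39 in sensitive and 7.53, 7.48, 7.51 and 7.55 in resistant arrays. The groups stood apart by little and the difference of 0.12 ± 0.06 was not called. SP4, an SP1-like factor (-0.04 ± 0.14), and NFE2L3, a relative of NRF2 (-0.40 ± 0.14), were not called either. The NRF2 gene itself, NFE2L2, and NFE2L1 fell, by 0.75 ± 0.09 and 1.17 ± 0.11.

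Genes of nutrient sensing, the lysosome and membrane traffic were mostly lower, with 6 of 8 fallen and 1 risen. Over the whole list 44.4% fell, and over all genes above the median level 23.9% fell and 23.3% rose. These 8 genes were put together with earlier results known, so their count is a description only. MIOS, a subunit of the GATOR2 complex that relays amino acid supply to mTORC1, lay at 9.86, 9.96, 10.06 and 9.93 in sensitive and at 9.16, 9.02, 9.24 and 9.02 in resistant arrays. The groups did not overlap and the difference of -0.84 ± 0.08 is a 1.79-fold lower signal. Of the other GATOR2 subunits, encoded elsewhere, SEH1L and SEC13 rose by 0.78 ± 0.13 and 0.61 ± 0.07, and WDR24 (0.06 ± 0.13) and WDR59 (-0.01 ± 0.08) were not called. SEH1L and SEC13 are subunits of the nuclear pore as well. TAX1BP1, an autophagy receptor that also restrains inflammatory and death signalling, had 11.79, 11.99, 11.89 and 11.82 in sensitive and 10.94, 11.10, 11.09 and 11.13 in resistant arrays, a difference of -0.81 ± 0.08. A second TAX1BP1 probe set of similar brightness fell by 0.98. A dimmer one, the gene's only probe set without a suffix, differed by -0.34 ± 0.26 and was not called. TMEM106B, a lysosomal membrane protein, fell by 0.58 ± 0.09, SNX13, a sorting nexin, by 0.36 ± 0.07. ICA1, which acts in secretory vesicle formation, had 6.57, 7.06, 6.72 and 6.88 in sensitive and 5.84, 5.54, 5.92 and 5.63 in resistant arrays. It fell by 1.07 ± 0.14, with no overlap. GPNMB, a melanosome and lysosome glycoprotein, fell by 0.64 ± 0.14 at a level close to that of the median probe set.

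OSBPL3, an oxysterol-binding lipid transfer protein, went the other way, from 6.71, 6.90, 6.70 and 7.12 in sensitive to 8.23, 7.87, 7.99 and 7.84 in resistant arrays. This rise of 1.13 ± 0.13, 2.18-fold, was seen at a second probe set too (0.77 ± 0.11). Its relative OSBPL6 fell by 1.39 ± 0.12.

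In the ubiquitin system 3 of 4 members fell, against 44.4% of the whole list and 23.9% of all genes above the median level. This small group was also formed with earlier results known. KBTBD2, a substrate adaptor of cullin-3 ligases that controls insulin signalling, had 9.98, 9.98, 9.91 and 10.02 in sensitive and 9.20, 9.40, 9.23 and 9.31 in resistant arrays, a difference of -0.69 ± 0.07. Both of its further probe sets fell, by 0.56 and 0.77. RNF216, a ubiquitin ligase, had 8.33, 7.99, 8.31 and 8.07 in sensitive and 7.27, 7.67, 7.46 and 7.38 in resistant arrays. It fell by 0.73 ± 0.12 without overlap, with 1 of its 2 further probe sets above the median level falling by 0.35. USP42, a deubiquitinase, had 8.03, 8.15, 7.76 and 7.87 in sensitive and 7.999, 8.14, 8.10 and 8.17 in resistant arrays. These groups overlapped and the difference of 0.15 ± 0.10 was not called, although its second probe set rose by 0.52 ± 0.12. KLHL7, another adaptor of cullin-3, fell by 0.45 ± 0.07 at its brightest probe set but rose by 0.58 ± 0.13 at the next, so its direction depends on the probe set.

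Among RNA-processing genes the probe sets of single genes disagreed. TRA2A, a splicing activator, had 9.26, 9.37, 9.14 and 9.16 in sensitive and 9.97, 10.12, 10.11 and 9.80 in resistant arrays at its brightest probe set, a rise of 0.76 ± 0.10. At its 3 other probe sets above the median level it fell, by 0.97 ± 0.13, 0.92 ± 0.15 and 0.69 ± 0.18. No single direction can therefore be given for the gene. TRA2B, its paralog, rose by 1.10 ± 0.06. HNRNPA2B1, an abundant RNA-binding protein that takes part in splicing and transport, lay at 12.23, 12.25, 12.15 and 12.24 in sensitive and 12.86, 12.95, 12.73 and 12.82 in resistant arrays. It rose by 0.62 ± 0.07 there, was level at its next probe set (-0.01 ± 0.09) and fell by 0.48 ± 0.10 at a dimmer one. HNRNPA1, the nearest relative named here, fell by 0.72 ± 0.10. BZW2, a regulator of translation start, fell by 0.33 ± 0.07, and EIF2AK1, the haem-regulated kinase of eIF2 alpha, differed by -0.14 ± 0.11 and was not called, while its second probe set rose by 0.75 ± 0.15.

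**Figure D4:**
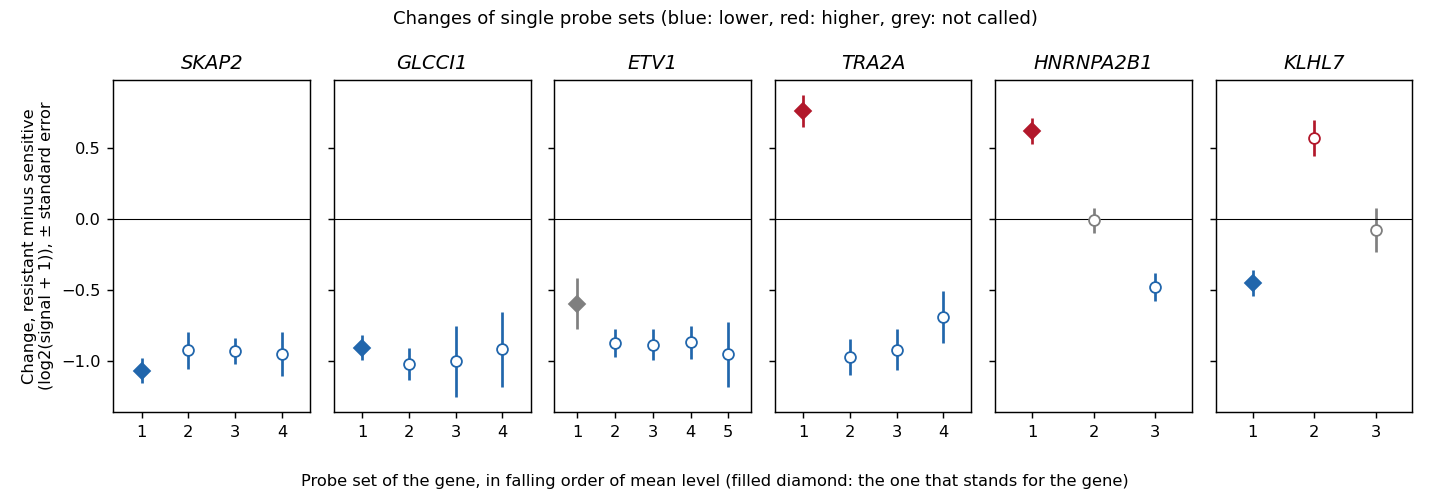
Differences of single probe sets for 6 members, on the log2(signal + 1) scale with standard errors, with resistant minus sensitive on the vertical axis and the probe sets of each gene in falling order of mean level. Only probe sets above the level of the median probe set are drawn, and calls here are from a fit across all probe sets. All probe sets of SKAP2 and GLCCI1 fell, those of ETV1 lay between -0.59 and -0.95, and those of TRA2A, HNRNPA2B1 and KLHL7 lay on both sides of 0.

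The probe sets of a gene often differed in call. Besides the one used, 36 members had at least 1 more that exceeded the median level, 74 in all, of which 12 differed in sign and 6 were called in the opposite direction. Those 6 belonged to 4 members, EIF2AK1, HNRNPA2B1, KLHL7 and TRA2A. Of 23 called members with such a further probe set, 8 had every one called the same way. With all probe sets averaged the call was lost for 11 members: IQCE, FOXK1, RBAK, RNF216, PHF14, SNX13, HDAC9, RAPGEF5, HNRNPA2B1, CREB5 and BBS9. Among members not called, a further probe set of DAGLB fell by 0.40 and of DPY19L1 by 1.02. Another 11 members, among them BRAT1, AHR, ANKMY2, BZW2 and CDCA7L, had a single probe set.

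Members of other kinds moved in both directions. GLCCI1, a glucocorticoid-induced transcript, lay at 9.45, 9.37, 9.35 and 9.34 in sensitive and 8.52, 8.41, 8.56 and 8.41 in resistant arrays, a difference of -0.90 ± 0.07 that was shared by its 3 other probe sets above the median level. THSD7A, a membrane protein with thrombospondin repeats, fell by 0.43 ± 0.10. Of the cilium genes, BBS9, a subunit of the BBSome, had 6.65, 6.88, 6.77 and 6.64 in sensitive and 6.15, 5.88, 6.05 and 5.95 in resistant arrays and fell by 0.73 ± 0.09. BBS2 and BBS4, subunits encoded elsewhere, fell by 0.64 ± 0.07 and 0.31 ± 0.08, the latter call being lost without sensitive array 2, 3 or 4 or resistant array 3, and BBS1, BBS5 and BBS7 were not called. IQCE, which acts in Hedgehog signalling at the cilium, had 6.02, 6.40, 6.37 and 6.70 in sensitive and 7.68, 7.46, 7.67 and 7.38 in resistant arrays, a rise of 1.18 ± 0.15. Its other probe set lay at -0.39 ± 0.18 and was not called, and with both averaged the difference was 0.39 and the call was lost.

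BRAT1, a partner of BRCA1 and ATM in the DNA damage response, lies beside IQCE and rose as well. Its levels were 8.14, 7.64, 8.06 and 8.10 in sensitive and 8.67, 8.67, 8.76 and 8.76 in resistant arrays, a difference of 0.73 ± 0.12 with no overlap. RPA3, the smallest subunit of the single-stranded DNA binding complex RPA, had 10.73, 10.84, 10.83 and 10.87 in sensitive and 10.88, 11.01, 10.90 and 10.76 in resistant arrays. The groups overlapped, the difference was 0.07 ± 0.08 and it was not called, whereas the genes of the larger subunits, RPA1 and RPA2, rose by 0.90 ± 0.08 and 0.64 ± 0.09. FSCN1, the actin-bundling protein fascin, rose by 0.54 ± 0.09, with levels of 9.61, 9.48, 9.56 and 9.54 in sensitive and 10.18, 10.18, 10.12 and 9.85 in resistant arrays. Its second probe set rose by 0.60 ± 0.09. SCRN1, secernin, had 6.15, 5.32, 5.50 and 5.34 in sensitive and 6.11, 6.42, 6.998 and 6.81 in resistant arrays. It rose by 1.01 ± 0.26, with overlapping groups and a call that was lost without sensitive array 2, 3 or 4 or resistant array 3 or 4.

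Genes of glycosylation and the secretory pathway were not called at the probe sets used. C1GALT1, the core 1 O-glycan synthase, had 7.61, 7.65, 7.85 and 7.74 in sensitive and 7.72, 7.78, 7.87 and 7.66 in resistant arrays. Its groups overlapped with a difference of 0.05 ± 0.08, whereas C1GALT1C1, which encodes its chaperone COSMC, rose by 0.84 ± 0.09. With its probe sets averaged C1GALT1C1 differed by 0.42 and was not called. AGR2, a disulfide isomerase of secretory epithelia, had 13.13, 13.03, 12.97 and 13.01 in sensitive and 12.97, 13.04, 12.93 and 13.25 in resistant arrays. It differed by 0.02 ± 0.09 at this very bright probe set and rose by 0.61 at a second, dimmer one. DPY19L1, a C-mannosyltransferase, and ZDHHC4, a palmitoyltransferase, both differed by -0.16. SCIN, the actin-severing protein scinderin, was dim, with 4.39, 4.21, 4.13 and 5.20 in sensitive and 4.62, 3.96, 4.80 and 5.04 in resistant arrays, and a difference of 0.12 ± 0.31. GGCT, an enzyme of glutathione turnover, had 11.21, 11.48, 11.40 and 11.53 in sensitive and 11.71, 11.72, 11.82 and 11.53 in resistant arrays. The groups stood just apart and the difference of 0.29 ± 0.10 was not called. CCDC126 had 6.65, 6.84, 7.45 and 6.81 in sensitive and 7.45, 7.42, 7.18 and 7.23 in resistant arrays, with overlap and a difference of 0.38 ± 0.18 that was not called. Also not called were the chloride channel gene TTYH3 (-0.06 ± 0.23), the tetraspanin gene TSPAN13 (-0.03 ± 0.12), and the sorting nexin gene SNX10 (-0.38 ± 0.12).

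Across 52 measured paralogs and partner subunits of members, encoded outside the list, 17 (32.7%) fell, 10 (19.2%) rose and 25 were not called, with a median of -0.18. Of these genes 48 lay above the median level, where 23.9% of all genes fell and 23.3% rose. With the replicate numbers as a block 10 of them fell, and 11 fell and 6 rose among the 43 measured by probe sets without a cross-hybridisation suffix. Where both were called, a member and its counterpart went the same way for ETV1, CREB5, BBS9, SNX13 with SNX14 (-0.73 ± 0.11) and TRA2A. For TRA2A this held at its brightest probe set only. The SNX13 call was lost after median centring, with all probe sets averaged, with the replicate block and without suffixed probe sets. The calls of ETV1 and ETV5 were also lost under several alternatives, as given above. Member and counterpart went opposite ways for MIOS with SEH1L and SEC13, HDAC9 with HDAC4 and HDAC5, OSBPL3 with OSBPL6 and HNRNPA2B1 with HNRNPA1. HNRNPA2B1 too rose at its brightest probe set only, and at a dimmer one it fell by 0.48, the direction of HNRNPA1. HNRNPA1 itself differed by 0.24 at a probe set without that suffix. CREB1 and ATF2, counterparts of CREB5, fell by 0.41 ± 0.10 and 1.12 ± 0.25, the CREB1 call being lost without sensitive array 2 or 3 or resistant array 2.

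Among the members, 2 pairs that lie head to head, with start sites close together on opposite strands, were picked by name. The list was not searched for other such pairs. The 250 bases before each start are shown because the genes of a pair had differences of the same sign. ANKMY2, an ankyrin and MYND domain protein, and BZW2 start 427 bases apart on opposite strands, and both fell: ANKMY2 from 9.73, 9.71, 9.71 and 9.82 to 9.21, 9.27, 9.27 and 9.29, a difference of -0.49 ± 0.06, and BZW2 from 12.50, 12.36, 12.36 and 12.41 to 12.07, 12.10, 11.97 and 12.16. HNRNPA2B1 and CBX3 start 697 bases apart and were both higher at their brightest probe sets, CBX3 without a call. The sequences are those of RefSeq on GRCh38.p14, written 5′ to 3′ toward the gene, with GGGCGG or its reverse complement CCGCCC in capitals.
ANKMY2, chr7:16645755-16646004, minus strand: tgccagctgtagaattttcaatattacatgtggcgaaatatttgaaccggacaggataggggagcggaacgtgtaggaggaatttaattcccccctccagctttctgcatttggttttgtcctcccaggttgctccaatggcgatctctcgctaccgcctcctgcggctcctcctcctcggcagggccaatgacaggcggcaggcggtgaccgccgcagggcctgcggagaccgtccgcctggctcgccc
BZW2, chr7:16645931-16646180, plus strand: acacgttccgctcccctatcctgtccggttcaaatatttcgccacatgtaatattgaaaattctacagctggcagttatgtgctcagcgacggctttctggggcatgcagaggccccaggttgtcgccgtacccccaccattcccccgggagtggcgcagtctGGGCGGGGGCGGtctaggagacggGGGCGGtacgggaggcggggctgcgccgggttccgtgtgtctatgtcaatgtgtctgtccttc
HNRNPA2B1, chr7:26200747-26200996, minus strand: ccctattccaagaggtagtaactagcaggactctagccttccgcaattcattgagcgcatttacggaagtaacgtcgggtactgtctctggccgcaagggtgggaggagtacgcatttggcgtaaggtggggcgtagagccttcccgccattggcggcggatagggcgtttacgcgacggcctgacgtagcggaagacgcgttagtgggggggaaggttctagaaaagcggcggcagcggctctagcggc
CBX3, chr7:26201193-26201442, plus strand: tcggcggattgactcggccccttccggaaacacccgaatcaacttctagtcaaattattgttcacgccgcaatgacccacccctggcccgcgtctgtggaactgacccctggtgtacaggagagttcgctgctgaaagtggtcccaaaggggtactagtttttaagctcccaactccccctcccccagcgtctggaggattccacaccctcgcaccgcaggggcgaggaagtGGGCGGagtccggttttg
The ANKMY2 and BZW2 windows share 74 bases, read from opposite strands, and the HNRNPA2B1 and CBX3 windows do not overlap. BZW2 held 3 matches to GGGCGG and CBX3 held 1, while the other 2 windows held 0 on either strand. An entry among the RefSeq promoters was found for 47 of the 58 members, 44 of them measured. GGGCGG or CCGCCC was found in 24 of these (54.5%), against 56.3% of 15384 measured genes, and the median GC content was 62.4% in both sets. The AHR core GCGTG or its complement CACGC was found in 38.6% and 39.3%, the ETS motif CCGGAAGT or ACTTCCGG in 4.55% and 5.13%, TGACTCA or TGAGTCA in 4.55% and 3.18%, and TGACGTCA, which is its own reverse complement, in 0 of the 44 and in 2.38%. These shares describe the letters of the windows only.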

How the data were processed

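RNA of 8 samples was hybridised to 1 Affymetrix array each, after Trizol extraction and biotin labelling, per the labels' protocols. The authors deposited linear intensity signals of 54675 probe sets. RMA is the tool given in the submitters' processing notes, its version not given in the sources used here, but the deposited intensity values are linear and have a mean of 200 on every array after 2% is trimmed at each end, so the step that made them is not settled. Aligning every array to 1 mean hides any change in total RNA. Arrays have no read depth, and their number limits the precision.

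A pseudocount of 1 was added before log2 and no further normalization was made, so fold changes of dim genes are understated. The platform annotation gave 1 symbol for 41097 probe sets and several for 1801, and 11777 were not listed. Symbols were updated, and genes ordered, by the RefSeq table of GRCh38.p14, whose coordinates were not used otherwise except for the promoter windows. Groups were compared with limma 3.58.1 in R 4.3.3 (lmFit, eBayes, Benjamini-Hochberg over 19775 genes), a fit that was tested on simulated data. Exact permutation tests used scipy 1.17.1. The correlation of deviations between arrays of the same replicate number was -0.03, 0.00, 0.01 and -0.02, so the numbers do not pair the arrays.

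The members, the lists of counterparts, AHR targets and markers, and the grouping by role were chosen with earlier results of these data known. Values in every array are given for the 10 members with the largest falls, for those higher in resistant arrays and for others the results turn on. Other genes of the interval that are named come from the 5 largest falls and 5 largest rises past the threshold. Alternatives were another pseudocount, median centring, quantile normalization, a filter on dim probe sets, other choices of probe set, a replicate block, an intensity trend and leaving out arrays.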

Additional observations from a re-analysis of the deposited data

Results flagged for a closer look

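Of 116 sets of 4 values examined, 8 held 1 value far from the other 3, where chance gives about 1 in 20. Sensitive array 2 was low for BRAT1, at 7.64 with the nearest other sensitive array at 8.06. Resistant array 4 was low for GNA12 (9.16, nearest 9.68), ETV1 (8.10, nearest 8.65), AHR (9.54, nearest 9.68) and HDAC9 (5.78, nearest 6.58). Resistant array 1 was high for ZDHHC4, at 8.87 with the next at 8.68. In the 3' minus 5' difference of the ACTB control probe sets, sensitive array 3 stood at 0.226 with the nearest at 0.231, a gap of no practical size, and resistant array 2 at 0.133 with the nearest at 0.107. Without sensitive array 1 and resistant array 4, chosen after the data were seen, 36 members were lower, 24 fell and 9 rose.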

How the results depend on the processing

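Under 17 alternatives 32 to 36 of the members measured in each were lower in resistant arrays, except that 31 of 46 were when probe sets with a cross-hybridisation suffix were left out, and 35 of 52 without dim probe sets. The members' median difference was -0.27 after median centring, -0.16 with the mean of all probe sets and -0.30 with probe sets without a suffix, and -0.34 to -0.30 when leaving out 1 array. For the other genes of the interval the median was -0.16 after median centring, -0.17 after quantile normalization and -0.31 to -0.15 when leaving out 1 array, and 36 were lower among the 56 left without dim probe sets, a smaller count because fewer genes were tested. Median centring moved the median of all genes by 0.07. Of the counterparts 11 fell and 6 rose on probe sets without a suffix, with fewer genes measured. The samples share only a replicate number: with a replicate block 17 members fell and 8 rose, 10 counterparts fell, and 2268 genes fell and 2088 rose. Of the 33 members called, 11 kept direction and call under every alternative that could measure them: BRAT1, FSCN1, ZNF12, MIOS, GLCCI1, TMEM106B, ANKMY2, CDCA7L, OSBPL3, SKAP2 and KBTBD2. Among these 11, BRAT1, ANKMY2 and CDCA7L have a single probe set, with a suffix, so other choices of probe set could not test them. FSCN1, MIOS and OSBPL3 have no probe set without a suffix. Among the 33 called members direction changed for 6. With the mean of all probe sets KLHL7 lay at 0.017, GPNMB at 0.19 and TRA2A at -0.58, and on probe sets without a suffix RAPGEF5 lay at 0.28, HNRNPA2B1 at -0.48 and BBS9 at 1.24, as did HNRNPA1, a counterpart, at 0.24. These alternatives read other probe sets, those of RAPGEF5, GPNMB and BBS9 being dim. The call was lost for 11 members with the mean of all probe sets, for 8 with the replicate block and for 5 after median centring. On probe sets without a suffix it was lost for 4, RBAK, ICA1, SNX13 and TAX1BP1.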
